A study of Rattus norvegicus with 2 samples.

Results

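Vip interneurons are GABA-releasing cells of the cerebral cortex named for vasoactive intestinal peptide, and 225 of 12512 nucleus barcodes from rat orbitofrontal cortex were assigned to them. Of these, 120 came from the 5543 barcodes of a library from rats given methamphetamine (METH) and 105 from the 6969 barcodes of a library from rats given saline. A nucleus was a member when it held at least 500 genes, at least 1 UMI (a unique molecular identifier, 1 counted transcript) of the GABA-synthesising enzymes Gad1 or Gad2, and none of the vesicular glutamate transporter Slc17a7. It also needed at least 1 UMI of Adarb2, at least 1 UMI each of 2 or more of the 6 genes Vip, Chat, Colec12, Itga8, Scml4 and Crispld2, no UMI of Pde11a or Lamp5, and at most 1 of Unc13c. These 13 genes chose the members, so their levels are given below as a description. Both groups were male Sprague-Dawley rats of 8 weeks, and the labels name no other genotype. One group was injected intraperitoneally with 1 mg/kg METH over 7 days and the other received saline by the same route over the same days, and all were anaesthetised with pentobarbital at 60 mg/kg before tissue was taken. Orbitofrontal tissue of 4 rats per group gave 1 single-nucleus library per group. The labels say neither how the animals were combined nor how long after the last dose the tissue was taken.

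Most Vip interneurons arise in the caudal ganglionic eminence, an embryonic source of cortical interneurons, and many of them inhibit other interneurons, chiefly the Sst cells, so that pyramidal neurons are released from inhibition. They are known to respond to acetylcholine and serotonin through ligand-gated receptors, and subsets of them contain choline acetyltransferase (Chat), calretinin (Calb2), cholecystokinin (Cck) or corticotropin-releasing hormone (Crh). METH releases dopamine, noradrenaline and serotonin, and the orbitofrontal cortex takes part in value-guided choice.

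The members were sequenced to a median of 4759 UMIs and 2483 genes per nucleus in METH, with UMIs ranging from 1815 to 12465, and to 3687 UMIs and 2087 genes in saline, ranging from 1021 to 11419. Their summed counts were 647245 and 444124 UMIs. Scrublet, a doublet caller, marked 7 METH members (5.83%) and 4 saline members (3.81%), and the median mitochondrial share was 0.149% and 0.222%. The 2 libraries shared 9 cell barcodes, and none of these was a member. Because the METH nuclei were deeper, 87 members of each library were paired on total UMIs for the comparison between treatments, which left 401273 and 404051 UMIs. Levels are CPM, the UMIs of a gene summed over the nuclei of a class as parts of that class's total UMIs. With 1 library per group no spread between samples exists, so no test was made, and all 95% intervals cover counting error only.

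The edge of the rule ran through a graded range of Vip levels. In METH, 51 members had UMIs of exactly 2 of the 6 genes, 47 of 3, 22 of 4 and none of 5, and in saline the numbers were 59, 32, 12 and 2. Members with exactly 2 of the 6 held Vip at 1399 CPM in METH and 1264 CPM in saline. Nuclei just outside, with 1 of the 6 but the other conditions met, numbered 53 and 42 and held Vip at 525 and 1048 CPM. Reelin (Reln), a secreted protein typical of neurogliaform cells, was at 1100 and 957 CPM in those excluded nuclei, against 190 and 288 CPM in the members. Over all GABAergic nuclei Reln was at 1248 and 1263 CPM, so its level in the excluded nuclei was not particular to them. The conditions on Pde11a, Lamp5 and Unc13c were failed by 52, 11 and 4 nuclei in METH and by 26, 8 and 2 in saline, with overlap, which left 120 of 180 and 105 of 139 nuclei, and the nuclei lost to Pde11a still held Vip at 816 and 1254 CPM. A Vip UMI was absent from 2 METH members and 9 saline members.

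As a share of nuclei with GABA markers, the difference in member frequency between METH and saline was within counting error. With the gate applied after each nucleus was thinned to 2000 UMIs, 86 of 1278 METH nuclei were members (6.73%, interval 5.42 to 8.24, Clopper-Pearson) and 65 of 1066 saline nuclei (6.10%, 4.74 to 7.71). The log2 odds ratio of METH over saline was 0.15 (-0.35 to 0.66). On all counts the shares were 8.49% of 1413 and 9.19% of 1142. Of all nuclei with at least 500 genes and deep enough to thin (4732 and 5787) the shares were 1.82% and 1.12%, a log2 odds ratio of 0.70 (0.22 to 1.20), and GABAergic nuclei as a whole made up 1413 of 5490 METH nuclei and 1142 of 6917 saline nuclei.

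Levels of the gate genes are given first, as a description of what the rule selected. Vip, the peptide, was detected in 98.3% of METH members at 1550 CPM (interval 1455 to 1649) and in 91.4% of saline members at 1416 CPM (1308 to 1531). Excitatory nuclei, which should lack Vip and were deeper (medians of 10489 and 7447.5 UMIs), had a Vip UMI in 9.1% and 8.5% of nuclei at 8.8 and 11.4 CPM, and the source of those UMIs was not tested. Chat, the enzyme that makes acetylcholine, was detected in 33.3% and 34.3% of members, and in 0.1% and 0.3% of excitatory nuclei. The scavenger receptor Colec12 was found in 41.7% and 36.2% of members, the integrin subunit Itga8 in 54 of 120 METH nuclei and in 44.8% of saline nuclei, and the chromatin gene Scml4 in 57.5% and 52.4%. Scml4 was also present in 23.3% and 16.4% of excitatory nuclei, and Itga8 in 15.8% and 15.9%. Crispld2 had no UMI in any member, so that in practice 5 genes decided membership. Of the marker genes of Vip cells that the rule did not use, Calb2 was at 68.0 and 83.3 CPM in members against 12.9 and 8.8 CPM in other GABAergic nuclei, and Slc5a7, the choline transporter, at 75.7 and 63.0 CPM against 4.9 and 4.1 CPM. Npas1, a bHLH-PAS repressor, differed little, at 165 and 144 CPM against 138 and 114 CPM. The 250 bases before the annotated start of Vip (RefSeq, rat build GRCr8, plus strand, chr1:44470230-44470479) are shown because Vip gives the class its name. They were searched on both strands for TGACGTC, the core of the cyclic AMP response element, and the match is in capitals.
Vip: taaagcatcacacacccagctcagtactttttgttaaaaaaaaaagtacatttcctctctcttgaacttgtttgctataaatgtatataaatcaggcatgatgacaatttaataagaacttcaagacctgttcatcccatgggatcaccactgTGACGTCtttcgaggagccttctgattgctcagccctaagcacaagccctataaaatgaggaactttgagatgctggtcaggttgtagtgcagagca
The match begins at position -97 from the start. Of 33469 rat promoter windows of the same length, 937 hold this motif (2.80%); it is a description of the letters and not of binding.

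Outside the gate, Penk, Prox1, Caln1 and Sorcs3 were among the genes highest in members against all other GABAergic nuclei. Since the gate chose the nuclei and the ranking asked for both libraries, these ratios are a description. Of 1938 genes at 100 CPM or more in members, 15 were at least 4-fold higher in both libraries (0.774%), and of 2114 genes at that level in the other GABAergic nuclei, 36 were at least 4-fold lower (1.70%). Penk, the precursor of the enkephalin opioid peptides, came first, at 108.2 CPM in METH members and 207 CPM in saline members against 10.8 and 9.2 CPM in other GABAergic nuclei. Its log2 ratio over them was 3.32 (2.85 to 3.79) and 4.49 (3.97 to 5.03). Prox1, a homeobox factor of interneurons from the caudal ganglionic eminence, followed at 267 and 293 CPM, a log2 ratio of 2.71 and 2.73. Lamp5 nuclei, a neighbouring type of the same origin defined here by Adarb2 and Lamp5 UMIs, also held Prox1 (191 and 137 CPM), whereas nuclei with Lhx6, the factor of medial-eminence interneurons, had 0.6 CPM in METH and none in saline. Rgs8 and Rgs12, regulators that shorten G protein signals, were members of the same group. Rgs8 was at 482 and 254 CPM in members and 58.8 and 56.4 CPM in other GABAergic nuclei, and Rgs12 at 190 and 214 CPM against 41.2 and 30.0. The other 8 of the 12 highest genes were the sodium pump modulator Fxyd6, the glycerol phosphate dehydrogenase Gpd1, the calcium-binding protein Caln1, the phosphodiesterase Pde1c, the semaphorin receptor Nrp2, the acid-sensing channel Asic1, the sorting receptor Sorcs3 and the Rac activator Tiam2. Their log2 ratios over other GABAergic nuclei lay between 2.15 (Tiam2 in saline) and 3.09 (Nrp2 in METH). Lamp5 nuclei shared 3 of these genes in part, with Rgs8 at 210 and 211 CPM, Sorcs3 at 557 and 894 CPM and Caln1 at 671 and 742 CPM. Caln1 and Sorcs3 were present in nearly every member, in 93.3% and 89.5% for Caln1 and in 96.7% and 95.2% for Sorcs3.

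The genes lowest in members were ones that other GABAergic nuclei held at moderate levels. The 6 lowest by the rule were the potassium channel subunit Kcns3, the adhesion receptor Adgrv1, the transcriptional regulator Eya4, the guidance cue Slit2, the motor protein Myo5b and the synaptic adhesion protein Il1rapl2. Kcns3 had 3 UMIs in METH members and 1 in saline members, against 145 and 160 CPM in other GABAergic nuclei. Il1rapl2 was at 54.1 and 83.3 CPM in members and 909 and 912 CPM in the others. Lamp5 nuclei were not alike for all 6, since Kcns3 stood at 142 and 157 CPM there while Eya4 was at 5.12 and 7.35 CPM.

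**Figure D1:**
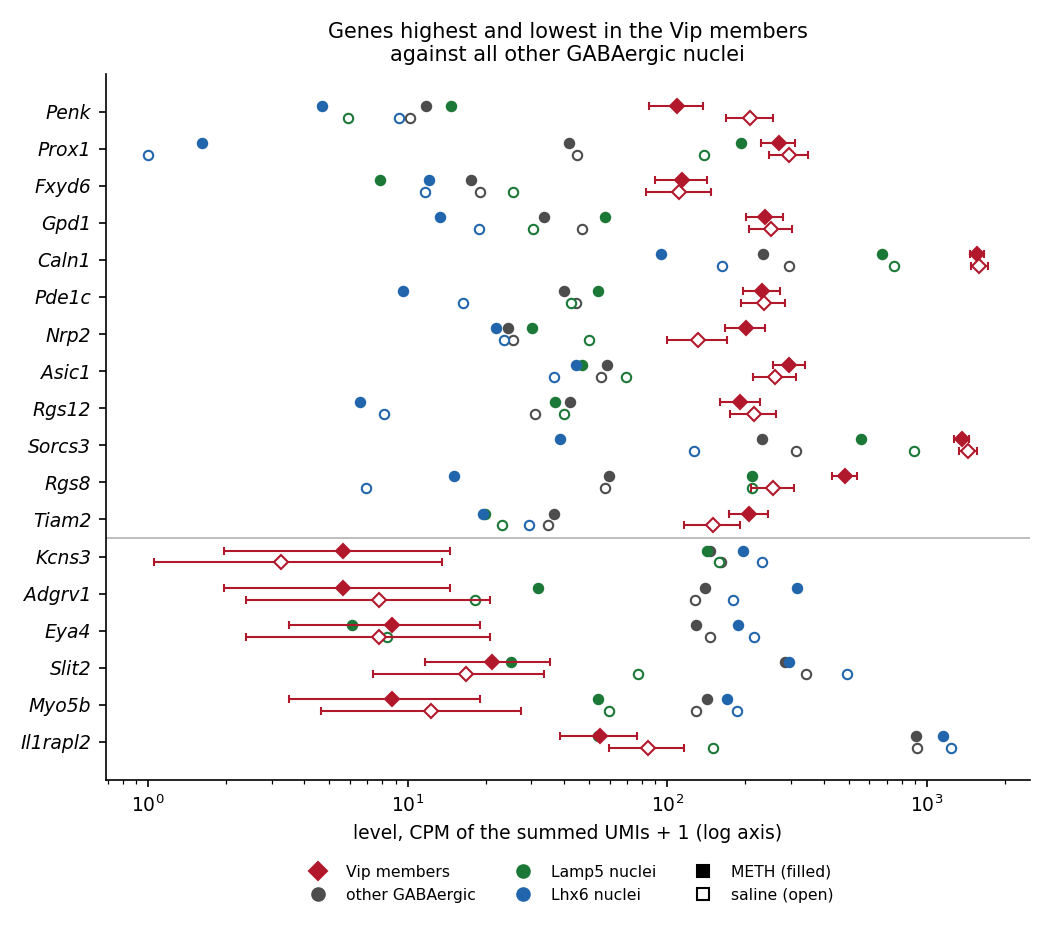
Levels, as CPM of the summed UMIs plus 1 on a log axis, of the 12 genes highest and the 6 genes lowest in the Vip members against all other GABAergic nuclei, with Lamp5 and Lhx6 nuclei for comparison (METH filled, saline open; bars on the members are exact Poisson 95% intervals). Members lie to the right of the other GABAergic nuclei for all 12 upper genes in both libraries, for example Penk at 108.2 and 207 CPM, and to the left of the other GABAergic nuclei for all 6 lower genes.

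By the lists of transmitter genes, members of both libraries held several peptides and nicotinic, serotonin and noradrenaline receptor transcripts, and almost no dopamine receptor transcripts. Among 18 neuropeptides listed, 16 had a symbol in the gene tables, and Vip, Penk, Cck, Tac3 (neurokinin B) and Crh were each in at least 15% of members of both libraries. Cck was in 30.8% and 29.5% of members, but excitatory nuclei, which make Cck, held it too (48.2% and 49.2%). Tac3 was in 21.7% and 24.8% of members, Penk in 22.5% and 28.6%, Crh in 15.0% and 17.1%, and in excitatory nuclei these 3 stayed between 1.0% and 5.9%. Npy, Cartpt, Nts and Rln1 had no UMI. Among cholinergic genes, the choline transporter Slc5a7 was in 23.3% and 21.0% of members, and the vesicular acetylcholine transporter Slc18a3 in 5.0% and 5.7%. The nicotinic subunits Chrna7 (54 of 120 nuclei, and 39.0%), Chrna4 (19.2% and 14.3%) and Chrna5 (15.0% and 15.2%) were detected at shares close to those of the deeper excitatory nuclei (44.1% and 37.2%, 15.1% and 13.3%, 17.4% and 12.2%), and in at most 3.2% of the shallower oligodendrocyte nuclei (medians of 2096 and 1604.5 UMIs), while the muscarinic receptor Chrm2 had no UMI and Chrm1 had 1 in each library. Of the 13 serotonin receptors, Htr2c (19.2% and 24.8%), Htr4 (34.2% and 29.5%) and the ligand-gated Htr3a (24 of 120 nuclei, and 17.1%) were the ones found in over 10% of members. Htr3a had a UMI in 0.9% and 0.4% of excitatory nuclei, Htr4 in 11.1% and 7.9%, and Htr2c in 23.5% and 18.5%, a share that depth and level both enter. The dopamine receptors Drd1, Drd3, Drd4 and Drd5 had no UMI and Drd2 had 1 and 3. With no UMI among 647245 in METH, a level of up to 4.64 CPM is allowed, and 6.75 CPM in saline. Noradrenaline receptors were represented by Adra1a (47.5% and 56.2%) and Adra1b (66.7% and 63.8%), with the other 6 listed adrenergic receptors at 2 UMIs or fewer per gene and library. The mu opioid receptor Oprm1 was in 40.8% and 33.3% of members, at 196 and 119 CPM, and in 54.1% and 47.7% of excitatory nuclei, at 99.5 and 103.5 CPM. Oligodendrocyte nuclei had an Adra1a, Adra1b or Oprm1 UMI in at most 6.0%.

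Markers of other cell types were present in members at levels that differed by list. The Meis/Pbx list of another GABAergic type summed to 786 and 763 CPM in members, against 1022 and 634 CPM in other GABAergic nuclei. The Lamp5 list summed to 375 and 592 CPM (1855 and 1887 CPM in the others) with Lamp5, Pde11a and Npy at 0, and the Sncg/Cck list to 357 and 509 CPM (252 and 274 CPM), with Sncg and Krt73 at 0. The 8 excitatory markers with a symbol summed to 107 CPM in METH members and 117 CPM in saline members, with Slc17a7, Tbr1 and Emx1 at 0. The 10 genes of medial-eminence interneurons summed to 363 and 441 CPM, against 2331 and 2465 CPM in other GABAergic nuclei, with Lhx6 at 0 and 2 UMIs. Astrocyte markers summed to 516 and 468 CPM. Oligodendrocyte markers were at 445 and 198 CPM, and microglial markers at 83.4 and 22.5 CPM, so both lists were higher in METH members, while the reverse held in the other GABAergic nuclei (414 and 687 CPM, and 48.8 and 95.6 CPM). In the depth-matched members the oligodendrocyte and microglial lists differed by log2 ratios of 0.68 (0.25 to 1.11) and 2.39 (1.40 to 3.53), and the medial-eminence list by -0.75 (-1.11 to -0.40). The Lamp5 list was at -0.54 (-0.83 to -0.24) and the Sncg/Cck list at -0.45 (-0.77 to -0.13). Their part in the differences described below was not tested.

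Within the members, no nucleus with a Chat UMI had a UMI of reelin or of the serotonin receptor Htr3a. All shares here are from counts thinned to 2000 UMIs per nucleus, which left 119 METH members and 99 saline members and a Chat UMI in 25 of each. Reln was found in 0 of 25 Chat nuclei in METH and 0 of 25 in saline, each of which allows a share of up to 12% by 3 counts and 13.7% by the Clopper-Pearson bound, against 22 of 94 (23.4%) and 21 of 74 (28.4%) of the nuclei without Chat. Htr3a was likewise in 0 of 25 and 0 of 25, against 11 of 94 (11.7%) and 13 of 74 (17.6%), and the bound of 13.7% covers the METH share of 11.7%. Reln and Htr3a are not gate genes. The gate pushes Chat and Itga8 apart, however, as described below. Over both libraries, members with Itga8 more often held Reln (37.3% against 11.9%) and Htr3a (17.9% against 7.95%). Whether the gate lowers both genes in Chat nuclei was not tested. Slc5a7, the choline transporter that supplies acetylcholine synthesis, went the other way, in 5 of 25 and 6 of 25 Chat nuclei against 7 of 94 and 7 of 74. Htr2c, a serotonin receptor coupled to G proteins, was in 7 of 25 and 9 of 25 Chat nuclei and in 9 of 94 and 11 of 74 of the rest. The cannabinoid receptor Cnr1 was in 8 of 25 and 2 of 25 against 37 of 94 and 34 of 74, so the 2 libraries differed in how far it was lower.

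The 5 genes highest in Chat nuclei in both libraries were the kainate receptor subunit Grik4, the receptor phosphatase Ptprt, the PDZ protein Pdzd2, Gpd1 and the immunoglobulin protein Igsf3. Grik4 stood at 600 and 780 CPM in Chat nuclei and 271 and 351 CPM in the rest, a log2 ratio of 1.15 (0.44 to 1.82) in METH and 1.15 (0.51 to 1.78) in saline. Ptprt had log2 ratios of 1.05 (0.32 to 1.76) and 1.92 (1.29 to 2.57). These 5 genes were ranked on the same nuclei that give their values, so the ratios describe the split.

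**Figure D2:**
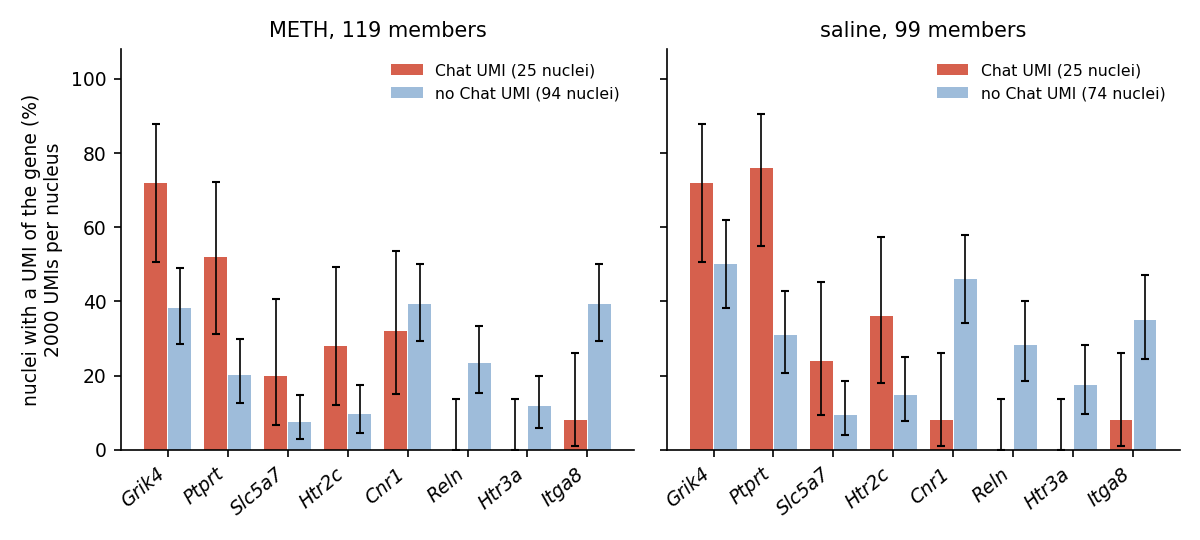
Percentage of members with a UMI of each gene, after thinning to 2000 UMIs per nucleus, in nuclei with a Chat UMI (red) and without one (blue), for METH (left) and saline (right), with Clopper-Pearson 95% intervals. Reln and Htr3a are at 0 of 25 Chat nuclei in both libraries, and Grik4 is at 72.0% of Chat nuclei in each.

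Itga8 also separated from Chat, in 2 of 25 Chat nuclei of each library against 37 of 94 and 26 of 74. Both genes belong to the gate, which by asking for 2 of 6 genes pushes such pairs apart. The split was therefore repeated, after the values were seen, in GABAergic nuclei chosen only by an Adarb2 UMI and at least 5 Vip UMIs. These were 132 METH and 91 saline nuclei of at least 2000 UMIs. Most were members: before the limit of 2000 UMIs, 79 of 133 in METH and 56 of 94 in saline. A Chat nucleus of this set already held 2 of the 6 genes, so only Pde11a, Lamp5 or Unc13c could keep it from membership. The repeat is thus not a separate set of nuclei. Over both libraries, Itga8 was then in 3 of 30 Chat nuclei (10.0%) and 45 of 193 others (23.3%), Reln in 1 of 30 (3.33%) and 49 of 193 (25.4%), and Htr3a in 1 of 30 (3.33%) and 33 of 193 (17.1%). Grik4 was in 20 of 30 Chat nuclei of that set and in 73 of 193 others, and Slc5a7 in 6 of 30 and 12 of 193. The Htr2c difference was not seen there, with 4 of 30 Chat nuclei (13.3%) and 39 of 193 others (20.2%). Of the 30 Chat nuclei, 11 were from saline, where 2 of 11 had Itga8 against 18 of 80 others.

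Members with Itga8 more often held Reln and Crh, in the overlapping set described above as well. They also more often held Cnr1, but that difference was not seen in the overlapping set. Itga8 belongs to the gate, which pushes it apart from other gate genes such as Chat, so the shares among members are a description. Whether the gate adds to these differences was not tested. Over both libraries, Reln was in 25 of 67 Itga8 members (37.3%) and 18 of 151 others (11.9%), Cnr1 in 39 of 67 (58.2%) and 42 of 151 (27.8%), and Crh in 14 of 67 (20.9%) and 7 of 151 (4.64%). Slc5a7 was in 1 of 67 Itga8 members and 24 of 151 others, and Htr2c in 2 of 67 and 34 of 151. In the overlapping set of GABAergic nuclei chosen by Adarb2 and Vip UMIs, Reln (39.6% and 17.7%) and Crh (27.1% and 6.86%) were also more frequent with Itga8. Htr2c was less frequent there (2.08% and 24.0%), but Cnr1 was at 47.9% and 48.0%.

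The smaller subsets by peptide or calretinin rested on few nuclei. Crh, the stress peptide, was found after thinning in 9 METH members and 12 saline members, all of which had a Vip UMI. Vip stood at 2500 and 3375 CPM in Crh nuclei against 1400 and 1385 CPM in the rest, log2 ratios of 0.84 (0.35 to 1.29) and 1.28 (0.90 to 1.65). Vip is a gate gene that most members held, so its presence and level here are a description. Pam, the enzyme that amidates peptide hormones, was among the 5 highest genes of Crh nuclei, at 2667 and 1708 CPM against 941 and 782 CPM. The other 4 were Fam49a, the potassium channel partner Dpp6, the receptor phosphatase Ptprz1 and Plppr1, with log2 ratios from 0.88 to 1.54. No nucleus had both Crh and Calb2, with 0 of 9 and 0 of 12, beside a Calb2 UMI in 9 of all 119 METH members and 15 of all 99 saline members. At those shares, so few Crh nuclei cannot show whether the 2 genes keep apart. Calb2, the calcium buffer calretinin, was found in 9 and 15 members, in which the 5 highest genes were Cpne4, Plxdc2, Srsf7, Spock3 and the transcription factor Zbtb20. Cpne4 stood at 556 and 900 CPM in them against 255 and 167 CPM in the rest. In METH the log2 intervals of Cpne4 (-0.01 to 2.11), Srsf7 (-0.06 to 1.68) and Zbtb20 (-0.08 to 1.54) held 0. Cck members numbered 20 and 24 and were led by Scml4 (log2 ratios 1.00 and 1.39), a gate gene, followed by Gpd1, the receptor Gpr158, Ywhae and the prohormone convertase Pcsk2. Pcsk2 was at 1500 and 1063 CPM with Cck and 727 and 687 CPM without. The interval of Gpd1 held 0 in METH (-0.07 to 1.78) and in saline (-0.12 to 1.89), and that of Ywhae in METH (-0.16 to 1.49). As with Chat, the genes of these splits were ranked on the same nuclei that give their values.

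Few genes differed between METH and saline in the 87 depth-matched members of each library. A gene counted as measured when the 2 libraries together gave it 60 UMIs or more and 1 of them reached 20 CPM. It passed the size rule when its ratio and the interval bound nearest 0 both exceeded 1.5-fold. Of 3030 measured genes outside the gate, 2 were higher in METH (0.0660%) and 7 lower (0.231%), 9 in all (0.297%). By the same rule the share was 0.779% of 2312 genes in matched Lamp5 nuclei, 0.522% of 4788 in Lhx6 nuclei, 0.376% of 7715 in all other GABAergic nuclei and 0.419% of 7156 in excitatory nuclei. The median log2 ratio was -0.0022, with 1511 genes above 0 and 1519 below. Among the gate genes, given as a description, Vip had 725 and 549 UMIs, 1807 and 1359 CPM, a log2 ratio of 0.41 (0.25 to 0.57), against 0.13 when all members were used. Chat had 61 and 64 UMIs, a log2 ratio of -0.06 (-0.59 to 0.47).

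**Figure D3:**
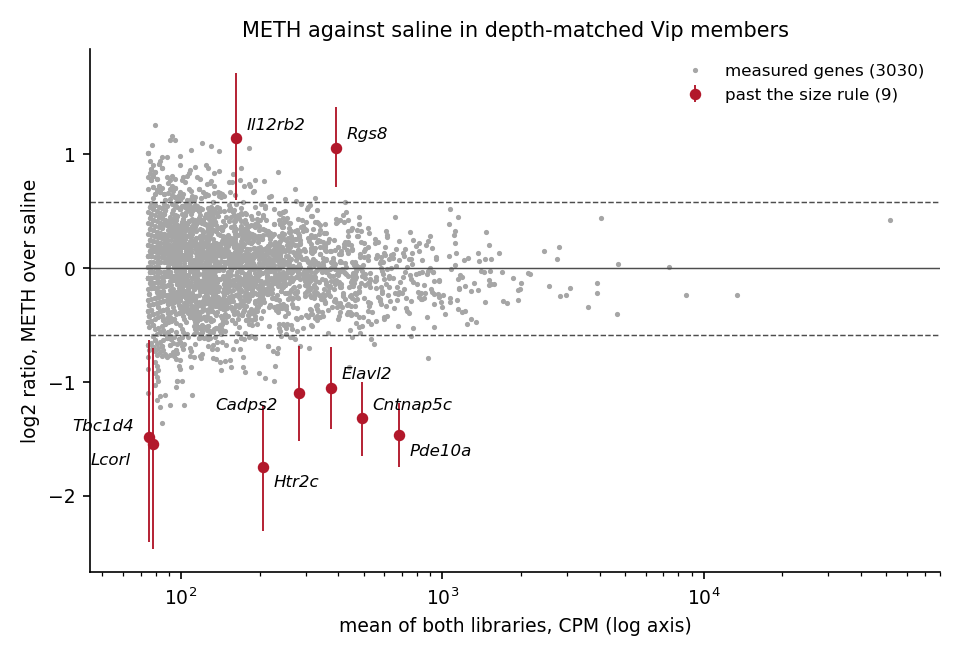
Log2 ratio of METH over saline against mean CPM (log axis) for the 3030 measured genes in 87 depth-matched members per library, with 95% counting intervals on the 9 genes past the size rule and dashed lines at 1.5-fold. Rgs8 and Il12rb2 lie above the upper line, and the 7 lower genes lie between -1.05 (Elavl2) and -1.74 (Htr2c).

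Pde10a, a phosphodiesterase that breaks down cyclic AMP and cyclic GMP, was lower in METH members than in saline members. It had 146 UMIs in METH (364 CPM, interval 307 to 428) and 405 in saline (1002 CPM, 907 to 1105), a log2 ratio of -1.46 (-1.75 to -1.19). A UMI was present in 61 of 87 METH members and 73 of 87 saline members, and at least 5 UMIs in 6 and 31, so the difference lay more in the amount per nucleus than in how many nuclei had any. The nucleus richest in Pde10a gave 6.16% and 8.40% of its UMIs. The ratio kept its place past the size rule under all 14 other settings, from -1.49 to -1.24. Among these, a minimum of 1000 genes kept the same matched nuclei, and a measuring limit of 30 UMIs does not enter a ratio. Neither could change the result. The same direction was measured in matched Lamp5 nuclei (-0.80, -1.11 to -0.49), Lhx6 nuclei (-0.78, -1.01 to -0.55), all other GABAergic nuclei (-0.85, -0.94 to -0.75) and excitatory nuclei (-0.70, -0.74 to -0.66). The members' log2 ratio lay below that of the other GABAergic nuclei by a difference of -0.62 (-0.90 to -0.33). In oligodendrocyte nuclei, where Pde10a was low, it was at 94.6 and 105 CPM in METH and saline. The 250 bases before 1 of the 2 annotated Pde10a starts (RefSeq, GRCr8, minus strand, chr1:54765669-54765918) are shown because this gene had the most stable difference, with TGACGTC on either strand in capitals.
Pde10a: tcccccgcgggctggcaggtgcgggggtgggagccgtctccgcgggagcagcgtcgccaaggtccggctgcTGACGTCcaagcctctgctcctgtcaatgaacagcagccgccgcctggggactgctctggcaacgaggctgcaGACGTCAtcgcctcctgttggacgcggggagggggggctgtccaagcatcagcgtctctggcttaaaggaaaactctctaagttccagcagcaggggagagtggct
The 2 matches begin at positions -179 and -106, the second in the reverse direction, and the window of the other start (chr1:54501207-54501456) holds none. The motif is the one seen before Vip, in 2.80% of windows, and these letters say nothing about which factor was bound.

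Htr2c and Cntnap5c were also lower in METH, each through a minority of nuclei rich in the transcript. Htr2c had 38 UMIs in 17 METH members (94.7 CPM, 67.0 to 130) and 128 UMIs in 25 saline members (317 CPM, 264 to 377), a log2 ratio of -1.74 (-2.30 to -1.21). Members with at least 5 Htr2c UMIs numbered 1 in METH and 10 in saline. Thinned to 2000 UMIs, Htr2c was in 16 of 119 and 20 of 99 members, its log2 ratio was -0.87, and the size rule was no longer met. Among members with at least 3 of the 6 genes it was -0.09. In other GABAergic nuclei it was 0.23 (0.07 to 0.40), and the difference from the members was -1.97 (-2.52 to -1.43). Cntnap5c, a neurexin-family adhesion protein, had 113 UMIs in 39 METH members (282 CPM) and 284 UMIs in 52 saline members (703 CPM), a log2 ratio of -1.32 (-1.65 to -1.0). The single richest saline nucleus held 53 of these UMIs, 18.7%. The Cntnap5c ratio was -0.64 with members thinned and -0.45 with at least 3 of the 6 genes, and met the size rule in neither. Lhx6 nuclei showed -0.83 (-0.98 to -0.68) and Lamp5 nuclei 0.61 (0.19 to 1.03), so the direction was not shared among interneuron types.

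Elavl2, Lcorl, Tbc1d4 and Cadps2 were the remaining genes lower in METH. Cadps2 falls outside the rule for named genes, since 1 nucleus held over 25% of its UMIs, and is named after its values were seen. Elavl2, a neuronal RNA-binding protein, had 98 and 204 UMIs (244 and 505 CPM), a log2 ratio of -1.05 (-1.41 to -0.69), and -0.59 when all members were used. Lcorl, a transcription factor gene, and Tbc1d4, a regulator of vesicle traffic, each had 16 UMIs in METH and had 47 and 45 in saline, log2 ratios of -1.54 (-2.46 to -0.70) and -1.48 (-2.40 to -0.63). With all members these ratios were -1.02 for Lcorl and -0.76 for Tbc1d4, and with members thinned both were -0.59. Lcorl passed the size rule in 7 of 14 other settings and Tbc1d4 in 6, counting the settings that could not change them. With the gate applied to thinned counts, Lcorl was at 0.04, on the other side of 0. Cadps2, a protein of dense-core vesicle release, had 72 and 155 UMIs, a log2 ratio of -1.10 (-1.52 to -0.68), and 1 nucleus held 38.9% of its UMIs in METH and 1 held 39.4% in saline. Cadps2 was found in 16 and 22 nuclei, and in thinned counts the phosphatase Ptprm stood at 563 and 588 CPM with Cadps2 and 184 and 116 CPM without. After thinning, 16 METH and 17 saline members held Cadps2. Ptprm was the highest-ranked gene of that split on the same nuclei that give its values, so these levels are a description.

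Rgs8 and Il12rb2 were higher in METH members. Rgs8 was among the genes highest in members over all other GABAergic nuclei. Over Lamp5 nuclei its log2 ratio was 1.20 in METH but only 0.27 in saline. In matched members Rgs8 had 213 UMIs in 67 of 87 METH nuclei (531 CPM, 462 to 607) and 103 UMIs in 51 of 87 saline nuclei (255 CPM, 208 to 309). The log2 ratio of METH over saline was 1.06 (0.71 to 1.41). At least 5 UMIs were found in 13 and 2 nuclei, and no nucleus held over 6.10% of the total. In Lamp5 nuclei Rgs8 stood at 215 and 220 CPM, a log2 ratio of -0.03 (-0.53 to 0.48), and across all other GABAergic nuclei its 273 and 275 UMIs gave 57.1 and 57.3 CPM. The members' ratio exceeded that of the other GABAergic nuclei by 1.06 (0.65 to 1.48). Rgs8 passed the size rule in 11 of 14 other settings, counting those that could not change it. It ranged from 0.59 to 1.12, the lowest with the gate on thinned counts. Il12rb2, a subunit of the interleukin-12 receptor, had 90 and 41 UMIs (224 and 101 CPM), a log2 ratio of 1.14 (0.60 to 1.71). It was higher in METH in Lamp5 nuclei (0.76), Lhx6 nuclei (0.82), other GABAergic nuclei (0.68) and excitatory nuclei (0.71) too, and the members' excess of 0.46 over other GABAergic nuclei had an interval that holds 0 (-0.09 to 1.01). Il12rb2 passed the size rule in 7 of 14 settings, again counting those that could not change it, and with all members its log2 ratio was 0.57.

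**Figure D4:**
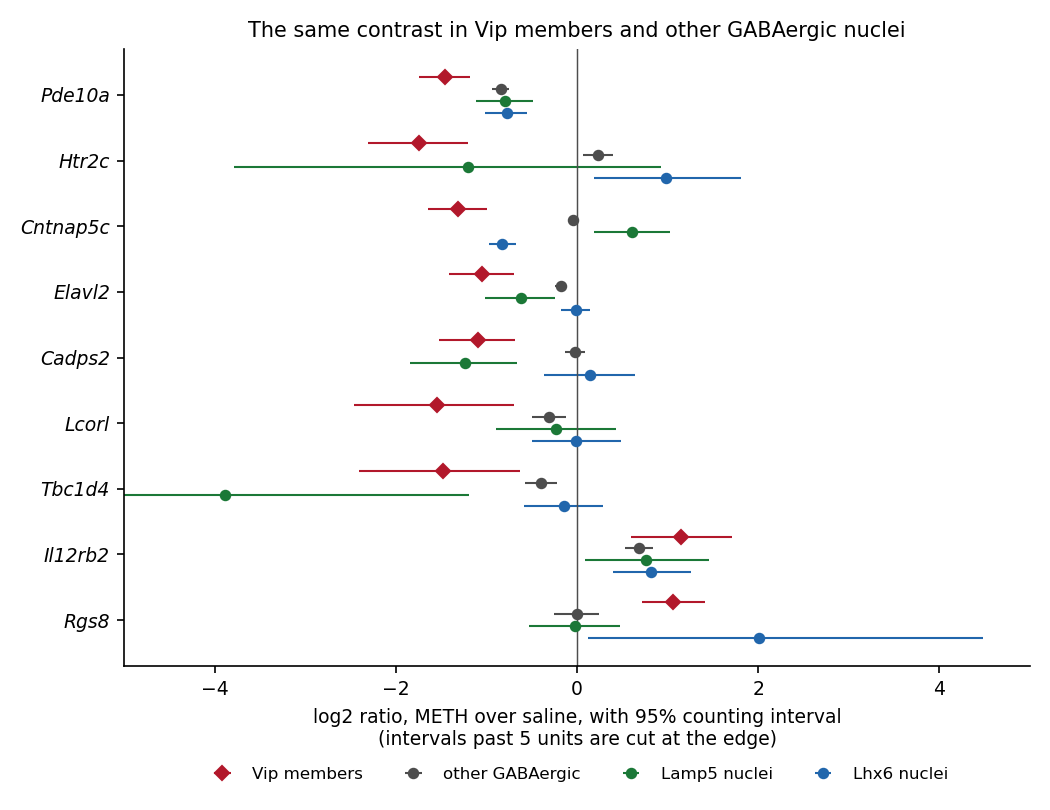
Log2 ratio of METH over saline, with 95% counting intervals, for the 9 genes past the size rule, in depth-matched Vip members (diamonds), all other GABAergic nuclei, Lamp5 nuclei and Lhx6 nuclei (circles). Pde10a lies below 0 in all 4 groups and Il12rb2 above 0, whereas Rgs8 is at 1.06 in members and near 0 in Lamp5 and all other GABAergic nuclei; the Lhx6 value of Rgs8 rests on 12 and 3 UMIs, and the Lamp5 values of Htr2c and Tbc1d4 on 3 and 7 and on 1 and 15.

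Counted gene by gene, the lists held few members past the size rule. Htr2c and Pde10a were the only listed genes among the 9, the first 1 of 2 measured serotonin receptors and the second 1 of 17 measured genes of cyclic nucleotide signalling and 1 of 5 of dopamine signalling. The UMIs of all 13 serotonin receptors summed gave a log2 ratio of -0.93 (-1.27 to -0.59), and Htr4 alone was at -0.50 (-1.14 to 0.13). A list of 13 genes picked because they differed across neurons in these same libraries is not independent, and its sum was at -1.08 (-1.30 to -0.87), with Pde10a and Cst3, a protease inhibitor at -0.33 (-0.88 to 0.21), as its 2 measured genes. The GABA receptor list had 7 of 9 measured genes below 0 and a median log2 ratio of -0.32, beside -0.0022 over all 3030 genes. Gabra4 was at -0.79 (-1.40 to -0.20) and Gabra2 at -0.51 (-1.14 to 0.10), both subunits of the GABA-gated chloride channel. The median of that list was -0.23 with all members and -0.19 with members thinned. In Lamp5 nuclei it was -0.0011 and in Lhx6 nuclei -0.45. Of 13 ionotropic glutamate receptor genes, 10 were below 0, with a median of -0.15. The AMPA receptor subunit Gria3 was furthest, at -0.99 (-1.46 to -0.54), with 187 and 306 CPM over all members, and the kainate subunit Grik1 was at 0.42 (0.10 to 0.75). Synaptic adhesion genes had 21 of 27 below 0 and a median of -0.21, with the protocadherins Pcdh15 at -0.92 (-1.42 to -0.44) and Pcdh17 at -0.73 (-1.40 to -0.08). The adhesion median was -0.15 with all members and -0.09 with members thinned. The same list had medians of -0.09 in Lamp5 and in Lhx6 nuclei, so its lower median in matched members did not set them apart after thinning. None of these genes passed the size rule, and the list medians have no interval.

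Lists of channels, release machinery and transcription factors had medians between -0.16 and 0.08 in matched members. Potassium channels had 10 of 18 below 0 and a median of -0.16, and sodium and calcium channels 10 of 16 and -0.07. Vesicle and release genes had 11 of 16 below 0 and a median of -0.08, with the calcium sensor Syt7 at 0.84 (0.05 to 1.66) and the vesicle SNARE Vamp2 at -0.72 (-1.43 to -0.02). In cyclic nucleotide signalling 10 of 17 were below 0, with a median of -0.09, and 0.01 with all members. There Pde3a stood opposite to Pde10a, at 0.78 (0.25 to 1.31), and was at 0.73 (0.46 to 1.00) in other GABAergic nuclei, a difference of 0.05 (-0.52 to 0.62). Of 10 transcription factors of caudal-eminence and Vip cells, 6 were above 0, with a median of 0.08 and Npas1 at 0.64 (0.12 to 1.18). That median was -0.05 with all members and -0.27 with thinned counts, so its direction was not stable. Mitochondrially encoded transcripts had 7 of 8 below 0 and a median of -0.32, beside -0.68 in Lamp5 and -0.55 in Lhx6 nuclei. The chaperones of the endoplasmic reticulum had 4 of 5 below 0, with Hspa5, the main luminal chaperone, at -0.88 (-1.72 to -0.08).

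Signalling peptides and receptors were mostly too sparse to measure. Penk was at -0.46 (-0.95 to 0.03), Cck at -0.37 (-0.96 to 0.20) and Tac3 at 0.09 (-0.62 to 0.81), all with intervals that hold 0. With all members Penk was at -0.94, from 108.2 CPM (84.3 to 137) and 207 CPM (167 to 254), and at -0.85 in thinned counts, and Cck was at -0.74 and -0.87, both further from 0 than in matched members. Oprm1, through which enkephalins and other opioids act, had a log2 ratio of 1.05 (0.54 to 1.58), just short of the size rule, with 37 and 32 nuclei holding a UMI and at least 5 UMIs in 6 METH members and none in saline. Its ratio was 0.72 with all members and 0.20 in thinned counts, and 0.53 (0.30 to 0.77) in other GABAergic nuclei. The nicotinic subunit Chrna7 was at 0.29 (-0.15 to 0.74) and the noradrenaline receptor Adra1a at -0.50 (-0.93 to -0.08). Homer1, a synaptic scaffold, was the only measured immediate early gene of 25 listed, at 0.47 (0.15 to 0.79), but at 0.17 with all members and -0.03 in thinned counts. The others were below the measuring limit, among them Fos with 26 and 8 UMIs and Btg2 with 27 and 7 over all members, of 647245 and 444124 UMIs in all. Summed over the 24 listed genes with a symbol, Homer1 among them, matched members held 947 CPM in METH and 641 CPM in saline. The log2 ratio of that sum was 0.56 (0.33 to 0.80), given for matched members only.

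**Figure D5:**
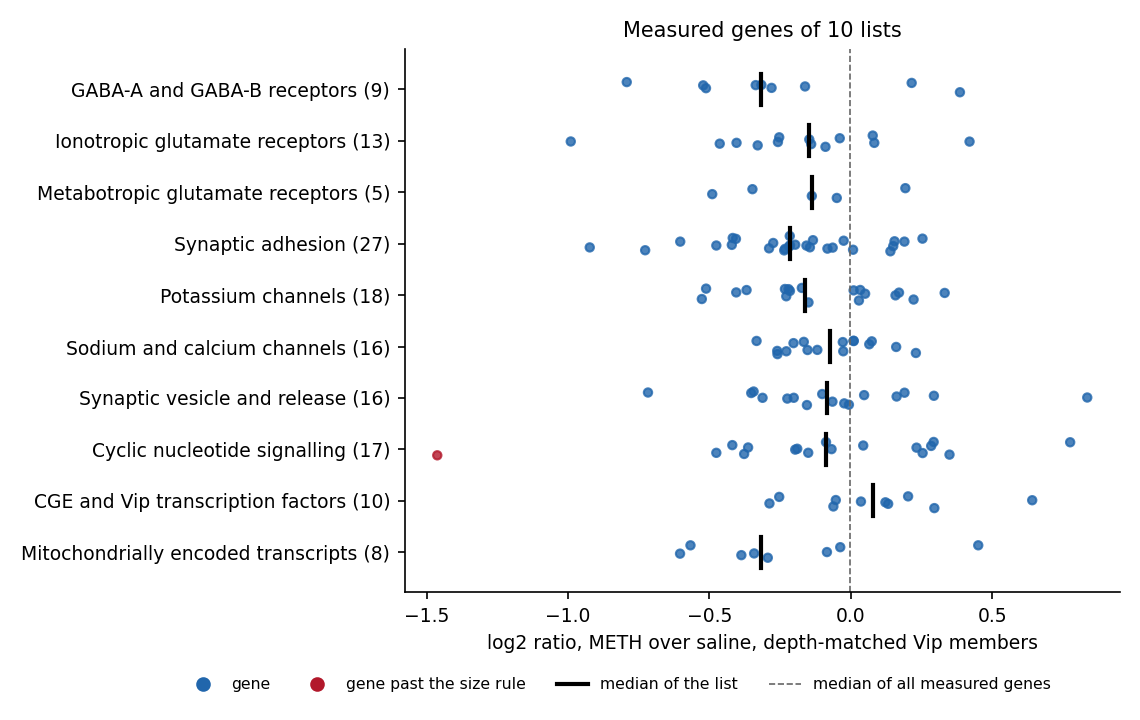
Log2 ratio of METH over saline of each measured gene of 10 lists in depth-matched members (dots), with the median of each list (black bar) and of all 3030 measured genes (dashed line). Medians run from -0.32 for GABA receptors (-0.19 with members thinned) and for mitochondrial transcripts to 0.08 for caudal-eminence and Vip transcription factors (-0.05 with all members), and Pde10a at -1.46 is the only gene drawn past the size rule.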

How the data were processed

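The authors deposited 1 raw UMI count matrix per library (10x Genomics 3' chemistry v3.1), made with Cell Ranger 7.0.0 per the submitters' processing notes. Those notes name a human build although the gene identifiers are rat Ensembl ones, so the alignment reference is uncertain. The counts were used unnormalised. Members were selected by the 13-gene rule, and the members and gene lists were chosen with earlier results of these data known. Members were paired on log2 UMIs within 0.1. UMIs were summed per class and given with exact Poisson intervals. Ratios carry exact conditional binomial intervals, shares Clopper-Pearson intervals and differences between classes Wald intervals, all at 95%. Shares within members used counts thinned to 2000 UMIs (seed 1). Scrublet in scanpy 1.11.5 (expected rate 0.06) marked doublets, which were kept. The edgeR 4.0.16 TMM factors were an alternative only. Scripts ran in Python 3.11.15 and were tested on simulated data. Genes were named by rank: 12 highest and 6 lowest against other GABAergic nuclei with at least 100 CPM, those past the size rule where no nucleus held over 25% of the UMIs, the 5 highest in each split with at least 30 UMIs, and 2 to 4 of the largest ratios per list. Clone-based, mitochondrial, ribosomal and haemoglobin genes were left out of the rankings. Of 549 listed genes, 520 had a symbol in the deposited tables. Some genes of the lists are not reported here by name.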

Additional observations from a re-analysis of the deposited data

How the results depend on the processing

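Of 112 checks of the 8 genes named by rule under 14 settings each, 78 stayed past the size rule, 33 kept their direction but no longer passed it, and Lcorl reversed, to 0.040 on the log2 scale with the gate applied to thinned counts. The 78 include all 8 genes under a minimum of 1000 genes, which kept the same matched nuclei. They also include all 8 under the limit of 30 UMIs, which does not enter a ratio. Those checks could not fail. The TMM factors (1.004 in METH, 0.996 in saline) and the total without the transcript AC134224.3 shift every ratio alike by little. Against 2 genes higher in METH, 1 passed with pairs matched within 0.05, 0 with members thinned to 2000 UMIs, 4 with the gate on thinned counts, 0 with at least 3 of the 6 genes, 1 without members holding at least 2 of Meis1, Pbx3 and Cdhr1, 6 with a minimum of 30 UMIs and no CPM minimum, 1 without the richest nucleus of each gene and 5 with equal weight per nucleus. Against 7 genes lower in METH, 2 passed with members thinned. Different genes passed in part: of the 9 genes in matched members, 5 also passed with all members, 5 with pairs within 0.05, 1 with members thinned, 2 with the gate on thinned counts and 2 with at least 3 of the 6 genes. Members' share of all nuclei with at least 500 genes gave a log2 odds ratio of 0.70. The cause of these changes was not tested; thinning also left 1575 of 3030 genes measured, and at least 3 of the 6 genes left 1153. No paired analysis was possible because each group has 1 library, and no replicate could be left out.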
